A study of Mus musculus with 2 samples.

Results

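The genes of arginine use, nitric oxide synthesis and itaconate synthesis in myeloid cells were Nos2, Arg1, Arg2, Slc7a2, Ass1 and Acod1. These 6 genes, of 32285 in the deposited tables, were matched by symbol, and all 6 were present in both libraries. They were chosen with their difference between the libraries in macrophages already known, so that difference is described here and is not independent evidence. The data were 10x Genomics 3' single-cell RNA libraries from lamina propria of the mouse colon, which lies beneath the gut epithelium, made from cells the labels call cd11b+. One library was titled Runx3_fl and the other Runx3, each the only library of its group. The study compared RUNX3 fl/fl-Lyz2-Cre mice, in which Cre driven by the Lyz2 promoter acts in macrophages and also in other myeloid cells such as neutrophils, with RUNX3 fl/fl littermates. Both groups therefore carried the floxed allele, and male mice of 8 weeks were pooled. The titles do not tell which library carried Cre. They are used as labels, and no direction is given between genotypes.

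Arginine enters macrophages through cationic amino acid transporters, of which CAT2, encoded by Slc7a2, is the inducible one. Inducible nitric oxide synthase, encoded by Nos2, converts arginine to nitric oxide and citrulline, and argininosuccinate synthase, encoded by Ass1, starts the return of citrulline to arginine. The arginases compete for the same substrate: Arg1 is the cytosolic and Arg2 the mitochondrial enzyme, and both release urea and ornithine. Acod1 (also called Irg1) makes itaconate from cis-aconitate of the citric acid cycle in activated myeloid cells, where itaconate inhibits succinate dehydrogenase and engages the Nrf2 antioxidant response. Nos2 and Acod1 are classical genes of macrophages stimulated by bacterial products and interferon-gamma, and Arg1 is a classical gene of macrophages stimulated by interleukin 4.

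All 6 genes are protein coding, and in the GENCODE M21 annotation of GRCm38 they lie on 6 chromosomes. Nos2 (ENSMUSG00000020826) spans chromosome 11, 78920787 to 78960254, plus strand. Slc7a2 (ENSMUSG00000031596) spans chromosome 8, 40862396 to 40922308, plus strand, and overlaps the noncoding gene Gm26584 on the other strand. Ass1 (ENSMUSG00000076441) spans chromosome 2, 31470207 to 31520672, plus strand. Arg1 (ENSMUSG00000019987) spans chromosome 10, 24915221 to 24927484, minus strand. Arg2 (ENSMUSG00000021125) spans chromosome 12, 79130777 to 79156301, plus strand, and overlaps the antisense gene Gm48780 and the protein coding gene Vti1b on the other strand. Acod1 (ENSMUSG00000022126) spans chromosome 14, 103046977 to 103056573, plus strand. Reads from both strands of an overlap are separated only where counting used strand, which the sources used here do not state.

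Promoter sequences of 2 of the 6 genes, Ass1 and Acod1, were in the RefSeq promoter table of GRCm38.p6, which gives 250 bases before and 50 bases after the start of each gene. They are shown as the members with an entry, and because the 2 differ in CG content. Both are printed 5′ to 3′ on the plus strand, Ass1 from chr2:31470020-31470319 and Acod1 from chr14:103046762-103047061. Capitals mark each CG dinucleotide and the TATAAA of Acod1.
Ass1: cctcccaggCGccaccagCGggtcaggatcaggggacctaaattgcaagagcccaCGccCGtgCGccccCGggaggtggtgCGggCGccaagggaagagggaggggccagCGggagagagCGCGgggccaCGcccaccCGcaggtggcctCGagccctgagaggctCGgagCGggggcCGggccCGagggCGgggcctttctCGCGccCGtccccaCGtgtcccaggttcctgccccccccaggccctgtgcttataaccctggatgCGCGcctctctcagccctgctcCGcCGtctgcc
Acod1: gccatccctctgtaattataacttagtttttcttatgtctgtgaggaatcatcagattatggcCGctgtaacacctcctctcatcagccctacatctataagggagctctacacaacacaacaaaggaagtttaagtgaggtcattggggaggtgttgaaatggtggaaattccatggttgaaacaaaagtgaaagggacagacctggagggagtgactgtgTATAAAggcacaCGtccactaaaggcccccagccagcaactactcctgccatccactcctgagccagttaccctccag
The Ass1 promoter held 27 CG dinucleotides and 74% G and C, above the medians of 7 CG dinucleotides and 52.7% over the 32851 promoters of 300 bases in the table. The Acod1 promoter held 2 CG dinucleotides and 47% G and C. Its TATAAA began 28 bases before the RefSeq start. For both genes the RefSeq start lies downstream of the GENCODE start given above, and the TATAAA lies within the GENCODE span of Acod1. Searched on both strands, TATAAA was in 13.6% of all promoters, and Ass1 held none. Neither promoter held the letters TGANTCA, a form bound by AP-1 factors, which were in 7.81% of all promoters. A match describes letters in this window only.

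The Runx3_fl-labelled library held 12968 cells and 146204416 UMIs, which count captured RNA molecules, and the Runx3-labelled library held 8953 cells and 75478164 UMIs. After the study's limits on genes and mitochondrial UMIs, 11885 and 8167 cells were kept, with medians of 9573 and 5731 UMIs. A UMI of Itgam, which encodes CD11b, was in 44.57% and 38.17% of kept cells, so many cells lacked a detected transcript of the labelled surface protein. The libraries shared 37 cell barcodes. In the Runx3_fl-labelled library, 2756 cells (23.19%) had Xist and no UMI of 4 Y-linked genes, a female pattern, whereas 0 such cells were in the Runx3-labelled library, and the study states male mice. Levels are given in CPM, the UMIs of a gene in 1000000 UMIs of the cells summed. Runx3, the targeted gene, was at 157.5 CPM (144 to 171.9) in macrophages of the Runx3_fl-labelled library and at 244.9 CPM (224.7 to 266.4) in those of the Runx3-labelled library. The targeted gene was thus not lower in the library titled Runx3, and its 3' counts do not show whether a deleted allele was transcribed.

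Macrophages were cells with at least 1 UMI each of Csf1r, the receptor for the growth factor CSF1, and C1qa, a complement gene of tissue macrophages, and no UMI of Flt3, Csf3r, Ncr1, Cd3e or Cd79a. This gate held 254 cells in the Runx3_fl-labelled library and 276 in the Runx3-labelled library, with medians of 12786 and 6380.5 UMIs. All 8 macrophage markers were at 10 CPM or more in both, and their sum was 3257 and 4648 CPM. The 7 neutrophil markers summed to 13.54 and 370.7 CPM in these cells, and to 10.77 and 284.9 CPM in Cd79a-gated B cells, which should lack them. The 10 dissociation stress genes summed to 3212 and 7446 CPM in macrophages, and 6 of them were past 2-fold higher in the Runx3-labelled library. The part of depth, free RNA and stress in the values below was not tested. Every interval in this text is at 95% and covers counting error only, because there was 1 library per group and no replicate check. Intervals of levels and ratios treat UMIs as independent and leave out the spread between cells. Fewer positive cells and less RNA per positive cell cannot be told apart in a summed level.

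The genes for arginine import and nitric oxide synthesis differed most between the libraries in macrophages. Slc7a2 was at 217 CPM (201.1 to 233.9; 689 UMIs) in the Runx3_fl-labelled library and at 18.49 CPM (13.27 to 25.08; 41 UMIs) in the Runx3-labelled library. The first level was 11.7-fold the second (8.56 to 16.5). Nos2 was at 72.45 CPM (63.39 to 82.44; 230 UMIs) against 9.019 CPM (5.509 to 13.93; 20 UMIs), a ratio of 8.03 (5.08 to 13.4). The intervals of the 2 libraries did not overlap for either gene. Allowing macrophages to carry Csf3r or Flt3 UMIs, a choice made after seeing the data, raised the cells to 559 and 801. The ratio then was 8.85 (7.71 to 10.2) for Slc7a2 and 3.73 (3.15 to 4.44) for Nos2, with Nos2 at 70.83 and 18.98 CPM. Neutrophil genes were also higher in this broader set of the Runx3-labelled library, with S100a8 at 104.7 and 1949 CPM, S100a9 at 138.3 and 1838 CPM and Csf3r at 70.31 and 154.6 CPM, and their part in the ratios was not tested. The size of the Nos2 difference therefore depended on which Csf1r and C1qa cells were counted, and its direction did not.

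Ass1, the gene of citrulline recycling, differed less. Its level in macrophages was 155.9 CPM (142.5 to 170.3; 495 UMIs) in the Runx3_fl-labelled library and 81.62 CPM (70.16 to 94.42; 181 UMIs) in the Runx3-labelled library, a ratio of 1.91 (1.61 to 2.28). With Csf3r and Flt3 cells allowed, the levels were 158.1 and 94.27 CPM and the ratio was 1.68 (1.54 to 1.83).

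The arginases showed another picture. Arg2 was at 199.1 CPM (183.9 to 215.2; 632 UMIs) in macrophages of the Runx3_fl-labelled library and 165.5 CPM (149 to 183.3; 367 UMIs) in those of the Runx3-labelled library. This ratio of 1.2 (1.06 to 1.37) was the smallest of the 6 genes, and its direction was not kept when only Runx3_fl cells with Xist and no Y-linked gene were used (log2 ratio of 0.88, Runx3 over Runx3_fl). Arg1 was scarcely detected: the macrophages held 0 UMIs in the Runx3_fl-labelled library, which allows up to 0.945 CPM at 3 counts, and 7 UMIs in 4 cells in the Runx3-labelled library, at 3.157 CPM (1.269 to 6.504). Set against that limit, the level in the Runx3-labelled library was 3.34-fold, which leaves out the counting error of the 7 UMIs. The interval of the log2 ratio, Runx3 over Runx3_fl, began at 1.045. B cells of the Runx3-labelled library had 2.126 CPM (1.26 to 3.36), which overlapped the macrophage level. The broader macrophage set held 0 and 20 Arg1 UMIs, the latter in 11 of 801 cells.

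Acod1, the itaconate gene, was at 1476 CPM (1434 to 1519; 4687 UMIs) in macrophages of the Runx3_fl-labelled library. In those of the Runx3-labelled library it was at 400.9 CPM (375 to 428.1; 889 UMIs), so that the first level was 3.68-fold the second (3.43 to 3.96). With Csf3r and Flt3 cells allowed, the levels were 1621 and 677.5 CPM and the ratio was 2.39 (2.32 to 2.47).

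Read against all genes, the lower values of the Runx3-labelled library stood against a general shift the other way. Of 11556 genes with at least 10 UMIs in macrophages, 3.53% were at least 2-fold lower in the Runx3-labelled library on log2(CPM + 1), and 15.5% were at least 2-fold higher. The median gene was at a log2 ratio of 0.24. Of the 5 members that passed this filter, 3 were 2-fold lower (Slc7a2 at -3.48, Nos2 at -2.87, Acod1 at -1.88), Ass1 was at -0.93 and Arg2 at -0.27, and 0 were 2-fold higher. Arg1, with 7 UMIs, did not pass. Because the members were selected on this contrast, nothing is read from their count. In the broader set the shares over all genes were 2.11% lower and 15.3% higher, with 3 of 6 members lower and 1, Arg1, higher.

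**Figure D1:**
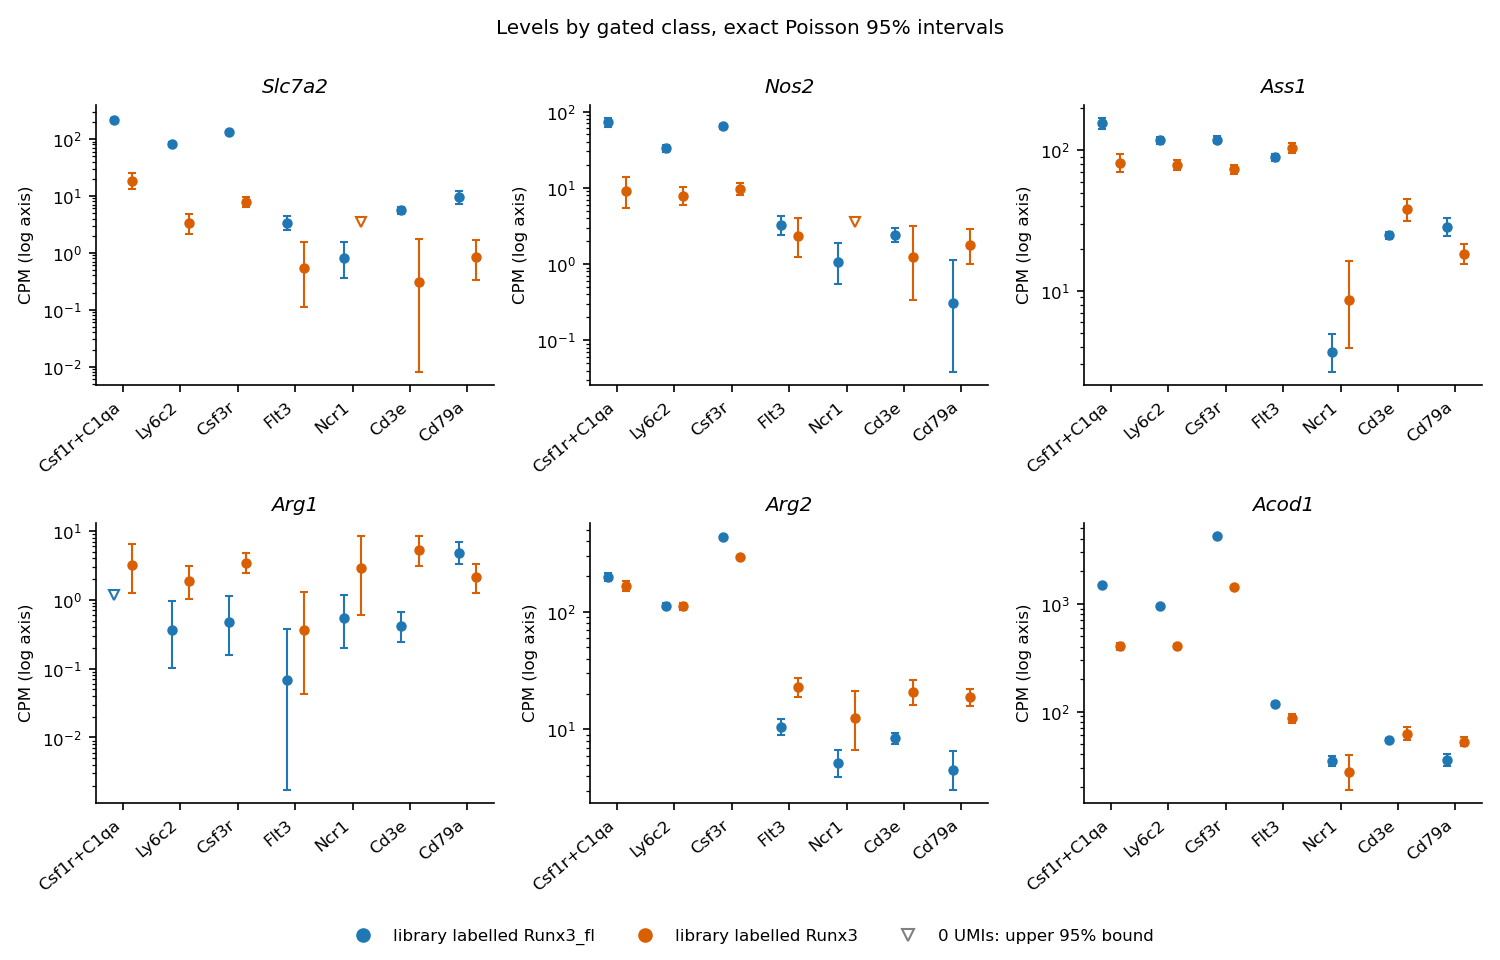
CPM (log axis) of each gene in 7 gated classes, named by the gate gene, for the Runx3_fl-labelled library (blue) and the Runx3-labelled library (orange), with exact Poisson 95% intervals; open triangles mark the upper bound of a level with 0 UMIs. Slc7a2, Nos2, Arg2 and Acod1 were highest in the Csf1r+C1qa, Csf3r and Ly6c2 gates, and Ass1 was also high in the Flt3 gate (89.47 and 104.1 CPM).

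The levels across cell classes gave each gene its own order. Besides macrophages the gates were Flt3 for dendritic cells, Csf3r for neutrophils, Ncr1 for NK cells, Cd3e for T cells, Cd79a for B cells and, in cells that passed no other gate, Ly6c2 for monocytes. Neither the Csf3r nor the Ly6c2 gate was pure. Csf1r, a gene of monocytes and macrophages, was in 50.36% and 50.07% of Csf3r-gated cells. Only 42.22% and 31.99% of Ly6c2-gated cells had Csf1r. Both gates were therefore also split by Csf1r, after the data were seen.

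Slc7a2 in the Runx3_fl-labelled library was highest in macrophages (217 CPM), then in Csf3r-gated cells (130.1 CPM, 123.2 to 137.2) and Ly6c2-gated cells (82.2 CPM, 76.89 to 87.79), and at most 9.524 CPM in the other 4 classes. The order of the top 3 was the same in the Runx3-labelled library, at 18.49, 7.907 and 3.315 CPM, and the other 4 classes were at or below 0.8268 CPM. None of the intervals of the top 3 overlapped within a library. The 353 and 1243 Cd79a-gated cells differed as well, at 9.524 CPM (7.285 to 12.23) against 0.8268 CPM (0.3324 to 1.703).

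Nos2 was in the same 3 classes. In the Runx3_fl-labelled library it was at 72.45 CPM in macrophages and 63.79 CPM (59.02 to 68.85) in Csf3r-gated cells, which overlapped, and at 33.1 CPM (29.76 to 36.72) in Ly6c2-gated cells. One Csf3r-gated cell held 77 of the 660 Nos2 UMIs of its class. Without that cell the class was at 56.44 CPM, below the macrophage interval (63.39 to 82.44), so the overlap depended on it. In the Runx3-labelled library the 3 levels were 9.019, 9.683 and 7.823 CPM, and their intervals overlapped. The other gated classes were at most 3.231 CPM in either library. Cells that passed more than 1 gate, 1168 and 1599 in number, held 27.78% (590 of 2124) and 57.2% (310 of 542) of the Nos2 UMIs, and 30.2% and 59.54% of the Slc7a2 UMIs. In these mixed cells Nos2 was at 26.47 CPM (24.38 to 28.7) against 13.41 CPM (11.96 to 14.99), a ratio of 1.97 (1.72 to 2.27). Slc7a2 was at 71.79 CPM (68.31 to 75.39) against 12.28 CPM (10.9 to 13.8) in them, a ratio of 5.84 (5.15 to 6.65).

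Ass1 was spread more widely. In the Runx3_fl-labelled library macrophages were highest, Csf3r-gated cells (119 CPM, 112.4 to 125.8) and Ly6c2-gated cells (118.2 CPM, 111.8 to 124.8) overlapped, and Flt3-gated cells followed at 89.47 CPM (84.72 to 94.41). In the Runx3-labelled library the Flt3-gated cells were highest at 104.1 CPM (95.83 to 113), above macrophages (81.62 CPM), Ly6c2-gated cells (78.89 CPM) and Csf3r-gated cells (73.29 CPM), which overlapped one another. The change of order came with lower values in 3 classes and a higher value in the Flt3 gate. Averaging over cells gave a log2 ratio, Runx3 over Runx3_fl, of -0.020 in the Flt3 gate. With cells thinned to 2000 UMIs, however, the Ass1 log2 ratio, Runx3 over Runx3_fl, turned from -0.69 to 0.30 in the Csf3r gate and from -0.58 to 0.06 in the Ly6c2 gate. NK cells had the least, at 3.664 and 8.618 CPM.

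Arg2 and Acod1 were both highest in Csf3r-gated cells. Arg2 was at 430.2 CPM (417.7 to 443.1) there in the Runx3_fl-labelled library and 290.2 CPM (280.4 to 300.4) in the Runx3-labelled library. Ly6c2-gated cells followed macrophages, at 113.1 CPM (106.8 to 119.6) and 111.9 CPM (104.5 to 119.7), which did not differ beyond their intervals. The remaining classes were between 4.528 and 22.8 CPM. Acod1 was at 4209 CPM (4169 to 4249) in Csf3r-gated cells of the Runx3_fl-labelled library and at 1419 CPM (1397 to 1441) in those of the Runx3-labelled library. Macrophages and Ly6c2-gated cells were apart in the first library (1476 and 956.1 CPM) and overlapped in the second (400.9 and 404.1 CPM). Flt3-gated cells were far below, at 118.1 and 86.36 CPM, and B cells, a comparison class, were at 35.44 and 52.44 CPM. The 4 plasma cell markers summed to 16708 and 7968 CPM in B cells, so this class differed in make-up between the libraries.

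Arg1 was sparse in every class. Over all kept cells there were 100 Arg1 UMIs in 75 cells of the Runx3_fl-labelled library and 163 UMIs in 77 cells of the Runx3-labelled library. B cells were highest in the first library (4.84 CPM, 3.289 to 6.87; 31 UMIs) and T cells in the second (5.306 CPM, 3.091 to 8.496; 17 UMIs, of which 11 were in 1 cell). The Csf3r gate of the Runx3-labelled library held 39 Arg1 UMIs, but 26 of them were in 1 cell, and its level was 3.465 CPM with that cell and 1.156 CPM without it. In the Runx3-labelled library the order of the classes therefore rests on single cells. In the Runx3_fl-labelled library the 31 UMIs of the B cells were in 22 cells, and their interval lay above those of the other 6 gated classes.

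**Figure D2:**
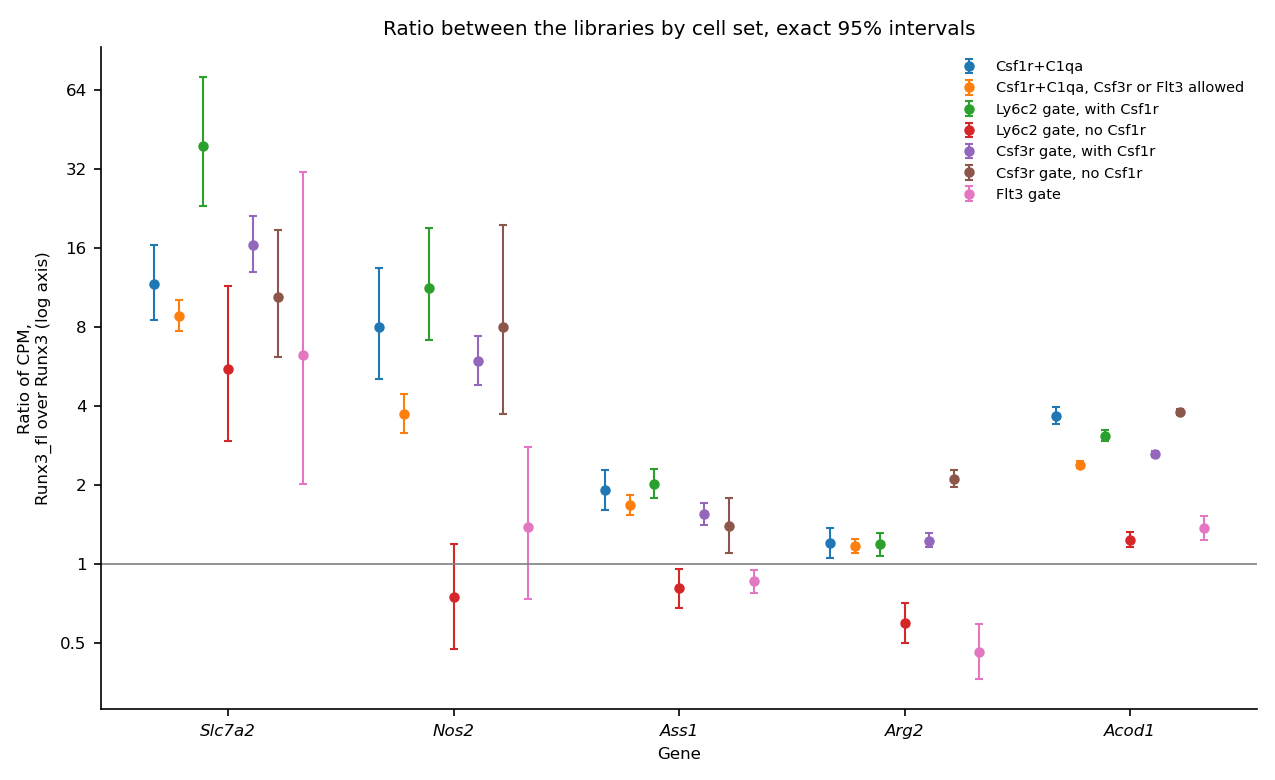
Ratio of CPM, Runx3_fl-labelled over Runx3-labelled library (log axis), for 5 genes in 7 cell sets, with exact 95% intervals that cover counting error only; the line is at 1. Slc7a2 lay above 1 in all 7 sets, whereas the other 4 genes were nearest to 1, or below it, in Ly6c2-gated cells without Csf1r and in the Flt3 gate.

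In Csf3r-gated cells without Csf1r (684 and 723 cells), Acod1 was at 7611 CPM (7511 to 7713) against 2006 CPM (1961 to 2051), a ratio of 3.8 (3.7 to 3.9). Arg2 in these cells was at 650.9 CPM (621.6 to 681.1) against 307.8 CPM (290.6 to 325.7), a ratio of 2.11 (1.97 to 2.28). This Arg2 ratio was larger than that in macrophages, and the intervals of the 2 ratios did not overlap. The neutrophil genes S100a8 and S100a9 moved the other way in these cells, with S100a8 at 4334 and 46371 CPM, so the cells of this gate differed in more than these genes.

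Csf3r-gated cells with Csf1r (694 and 725 cells) were closer in level to macrophages than those without it, for Slc7a2, Nos2, Acod1 and Arg2. For Slc7a2, Nos2 and Acod1 the ratios were not closer. Without Csf1r the ratio was 10.4 (6.15 to 18.8) for Slc7a2 and 8.01 (3.75 to 19.6) for Nos2. With Csf1r, S100a8 was at 675.9 and 6521 CPM. Slc7a2 was at 163.5 and 9.917 CPM, a ratio of 16.5 (13 to 21.2), and Nos2 at 81.86 and 13.72 CPM, a ratio of 5.97 (4.83 to 7.44). Acod1 was at 2910 and 1109 CPM (ratio of 2.62, 2.56 to 2.69), and Arg2 at 346 and 280.9 CPM (ratio of 1.23, 1.16 to 1.31). Slc7a2 and Nos2 were higher with Csf1r than without it in both libraries, whereas Acod1 was higher without it in both. Arg2 was higher without Csf1r in the Runx3_fl-labelled library, and its intervals in the Runx3-labelled library overlapped.

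In the Ly6c2 gate the ratios of Slc7a2, Nos2 and Acod1 were larger in the cells with Csf1r (442 and 548 cells) than in those without it (605 and 1165 cells). With Csf1r, Slc7a2 was at 144.1 CPM (134.3 to 154.4) and 3.686 CPM (2.015 to 6.185; 14 UMIs), the largest ratio of the sets compared, 39.1 (23.2 to 71.9). Nos2 was at 56.64 and 5.003 CPM, a ratio of 11.3 (7.13 to 19.1), and Acod1 at 1465 and 473.9 CPM, a ratio of 3.09 (2.94 to 3.25). Without Csf1r, Slc7a2 was at 16.23 CPM (12.97 to 20.07) against 2.938 CPM (1.467 to 5.257; 11 UMIs), a ratio of 5.53 (2.94 to 11.5), and Acod1 at 414.3 against 333.3 CPM, a ratio of 1.24 (1.16 to 1.33). Nos2 was at 8.022 and 10.68 CPM in these cells, with overlapping intervals, and Arg2 was lower in the Runx3_fl-labelled library (44.31 against 74.25 CPM). The cells without Csf1r were shallow in the Runx3-labelled library, with a median of 1527 UMIs against 7340.

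Over whole gates, 3 of 6 members were 2-fold lower and 1 higher in the Runx3-labelled library both in Ly6c2-gated cells, where 2.27% of genes were lower and 14.8% higher, and in Csf3r-gated cells, where 2.5% were lower and 13.6% higher. The 3 lower members were Slc7a2, Nos2 and Acod1 each time and the higher one was Arg1, which in the Csf3r gate rests on the 1 cell with 26 UMIs. In Flt3-gated cells 1.88% of genes were lower and 9.14% higher. Of the 5 members tested there, Slc7a2 was lower (3.366 and 0.5386 CPM, the latter from 3 UMIs) and Arg2 was higher (10.57 and 22.8 CPM). Arg2 was also higher in Cd79a-gated cells, which should lack it, at 4.528 and 18.78 CPM. With the level of the Cd79a gate subtracted in each library, the Arg2 log2 ratio of the Flt3 gate turned from 1.04 to -0.49.

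**Figure D3:**
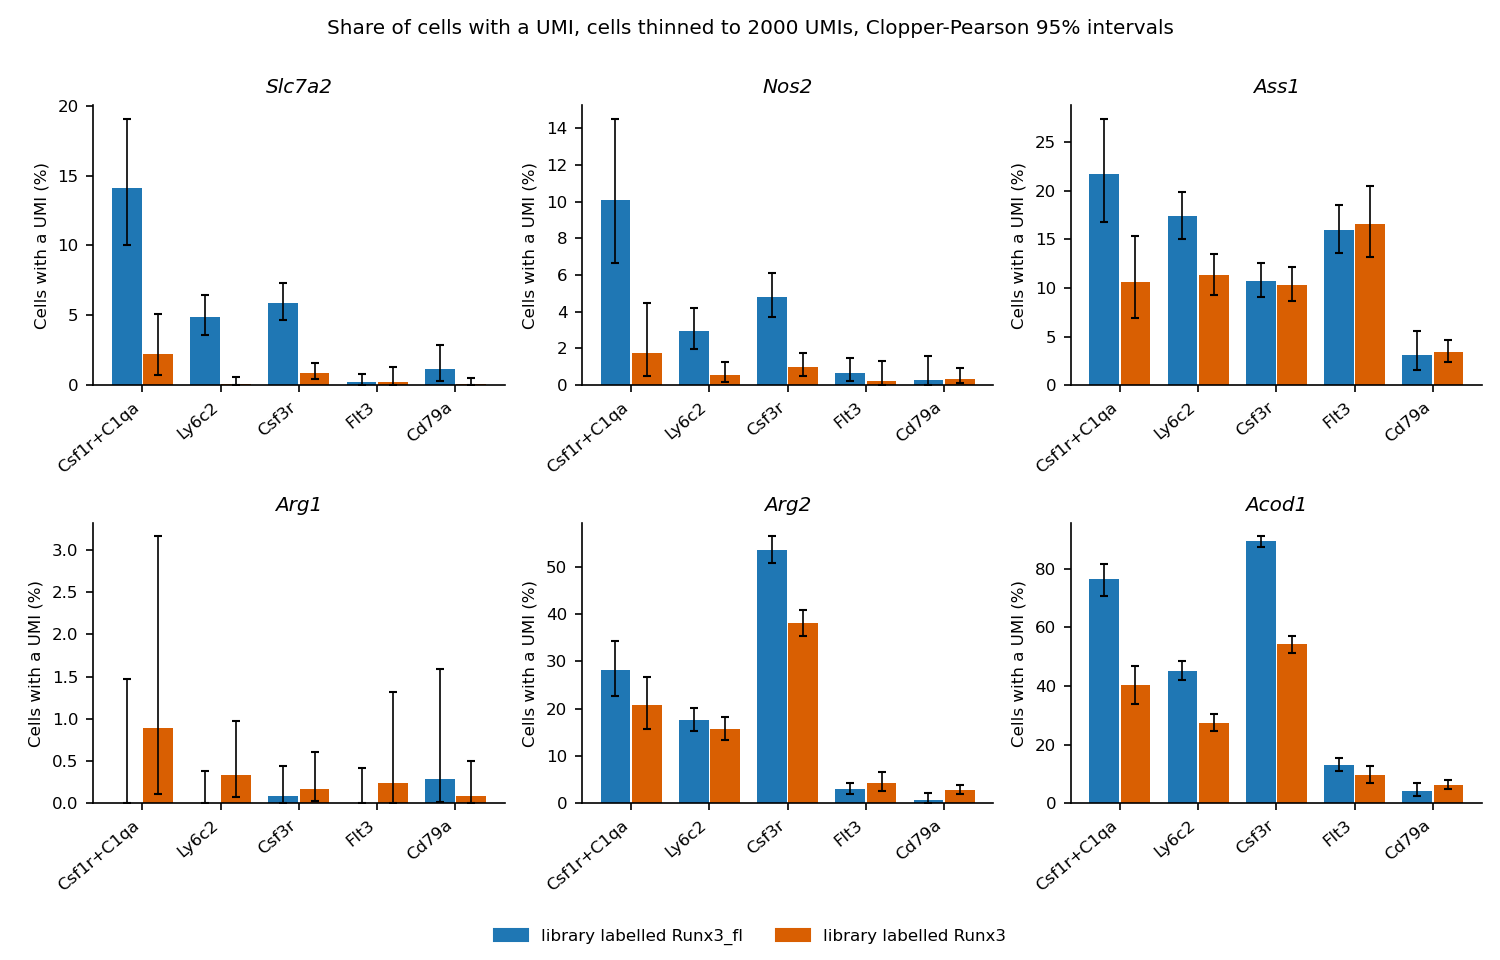
Share of cells (%) with at least 1 UMI of each gene after every cell was thinned to 2000 UMIs, by gate gene, with Clopper-Pearson 95% intervals, for the Runx3_fl-labelled library (blue) and the Runx3-labelled library (orange). The share of macrophages with Acod1 was 76.61% and 40.27%. The Cd79a gate is a comparison class and was not lowest for every gene. In the Runx3_fl-labelled library its Slc7a2 level was 9.524 CPM, against 3.366 CPM in the Flt3 gate.

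The number of cells in which each gene was seen was compared at equal depth, with every cell thinned to 2000 UMIs, which left out 6 and 50 macrophages. A Slc7a2 UMI was in 14.11% (10.03 to 19.08) of macrophages of the Runx3_fl-labelled library and in 2.212% (0.7222 to 5.087) of those of the Runx3-labelled library. Nos2 was in 10.08% (6.631 to 14.52) and 1.77% (0.4843 to 4.469). Neither pair of intervals overlapped. In B cells, thinned alike after leaving out 4 and 123 cells, these shares were 1.146% and 0.08929% for Slc7a2 and 0.2865% and 0.3571% for Nos2. The Slc7a2 intervals of macrophages and B cells (0.00226 to 0.4965) in the Runx3-labelled library did not overlap. Those of Nos2 did overlap (0.09739 to 0.9119 in B cells), and the macrophage share stood on 4 cells.

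Acod1 was in 76.61% (70.84 to 81.74) of thinned macrophages of the Runx3_fl-labelled library and in 40.27% (33.82 to 46.97) of those of the Runx3-labelled library, against 4.298% and 6.161% of B cells. Ass1 was in 21.77% (16.8 to 27.44) and 10.62% (6.924 to 15.39), against 3.152% and 3.393% of B cells. The Arg2 shares of 28.23% (22.71 to 34.27) and 20.8% (15.7 to 26.68) overlapped, and B cells had 0.5731% and 2.768%. For Arg1, 0 of 248 macrophages had a UMI in the Runx3_fl-labelled library, which at 3 counts allows a share of cells with a UMI of up to 1.21%, and 2 of 226 did in the Runx3-labelled library. Unthinned, the shares of macrophages were 21.65% and 3.986% for Slc7a2, 24.41% and 2.899% for Nos2, 57.48% and 27.9% for Ass1, 58.66% and 43.84% for Arg2, and 89.37% and 58.33% for Acod1. Median depths of the B cells were 16698 and 5561 UMIs.

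The transcripts of the import and nitric oxide genes sat in few cells. In the Runx3_fl-labelled library, 55 of 254 macrophages had Slc7a2, 1 cell held 87 UMIs, and the 13 cells with most of it held 71.12% of the 689 UMIs. Nos2 was in 62 of these cells, and the 13 with most of it held 51.74% of 230 UMIs. The other genes were more evenly spread, since the 13 cells with most of each gene held 27.27% of Ass1, 25.32% of Arg2 and 18.24% of Acod1 UMIs. In the Runx3-labelled library the 20 Nos2 UMIs were in 8 of 276 macrophages, 10 of them in 1 cell, and the 41 Slc7a2 UMIs were in 11 cells. Averaging cells equally in place of summing them moved the Slc7a2 log2 ratio from -3.48 to -2.91.

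**Figure D4:**
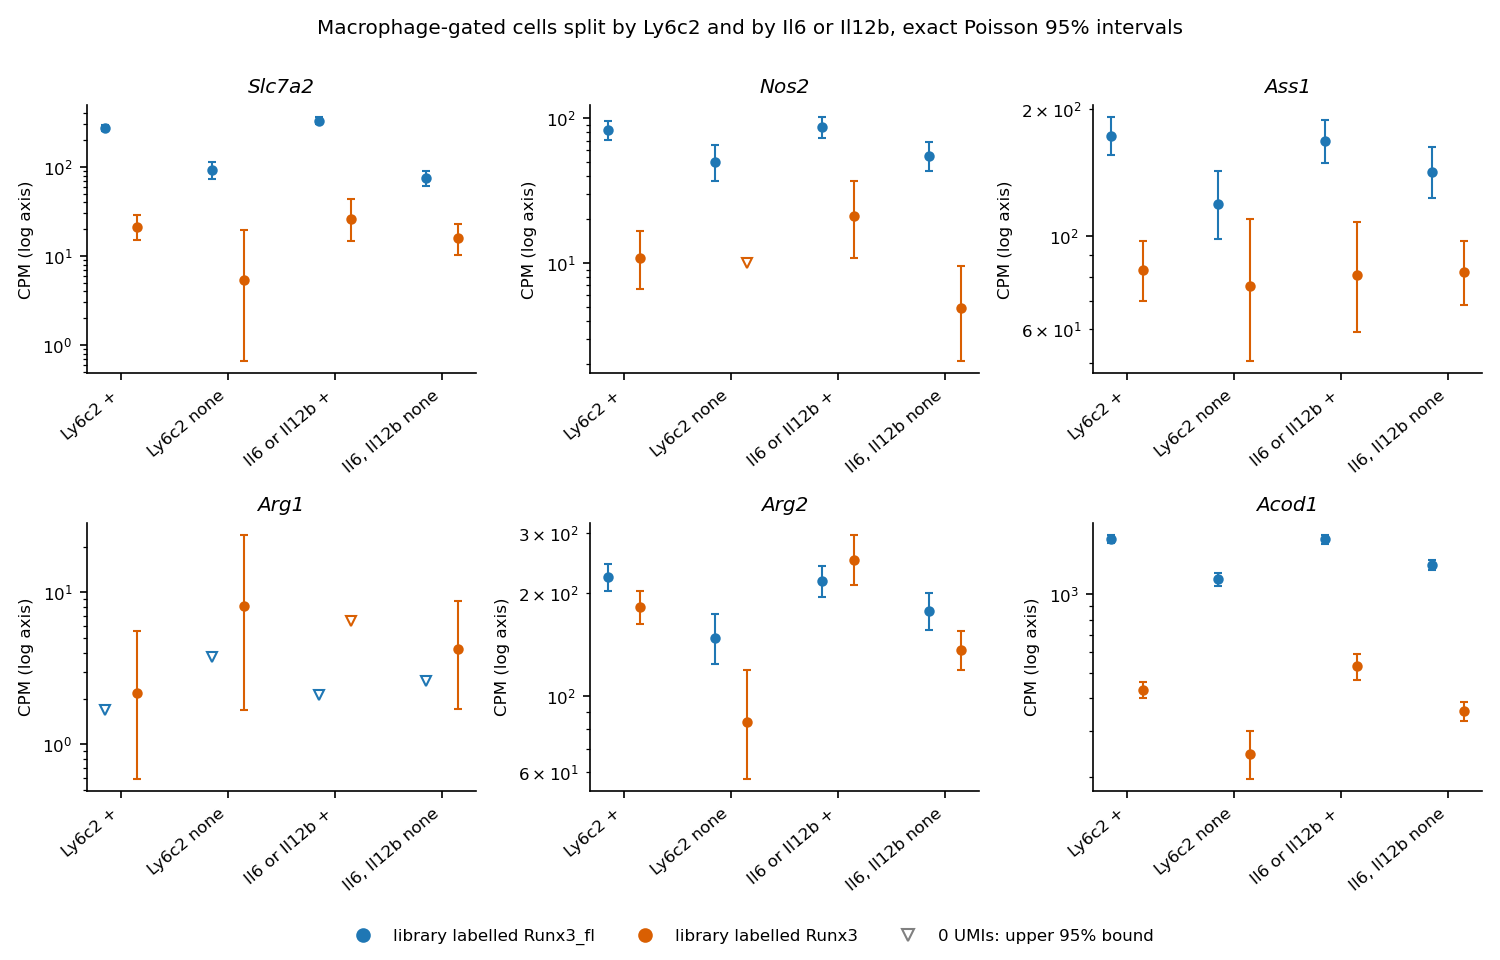
CPM (log axis) of each gene in macrophages split by a UMI of Ly6c2 and by a UMI of Il6 or Il12b, for the Runx3_fl-labelled library (blue) and the Runx3-labelled library (orange), with exact Poisson 95% intervals; open triangles mark the upper bound of a level with 0 UMIs. Slc7a2, Nos2 and Acod1 were lower in the Runx3-labelled library in each of the 4 sets, whereas Arg2 overlapped in cells with Il6 or Il12b.

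Macrophages with Ly6c2, a gene of monocytes, were set beside those without it. Ly6c2 was not particular to monocytes in these libraries, at 615.2 and 1322 CPM in macrophages and 757.6 and 936.7 CPM in B cells. There were 165 with and 89 without in the Runx3_fl-labelled library, and 223 and 53 in the Runx3-labelled library. Slc7a2 was higher with Ly6c2 in the first library, at 273.4 CPM (251.9 to 296.2) against 91.5 CPM (73.58 to 112.5), and at 21.1 against 5.423 CPM, with overlapping intervals, in the second. Acod1 was higher with Ly6c2 in both, at 1627 against 1141 CPM and at 432.2 against 244 CPM. Nos2 was at 82.61 (71.01 to 95.56) against 49.82 CPM (36.85 to 65.86) in the Runx3_fl-labelled library, and all 20 of its UMIs in the Runx3-labelled library were in cells with Ly6c2. Arg2 was higher with Ly6c2 as well, at 222.3 against 147.4 CPM and at 181.8 against 84.05 CPM. A cell with more UMIs passes this split more readily, and median depths were 13231 and 11519 UMIs in the first library and 6568 and 4337 in the second.

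Between the libraries, the differences were present on both sides of the split. Slc7a2 had ratios of 13 (9.37 to 18.4) with Ly6c2 and 16.9 (4.54 to 141) without it, the latter from 2 UMIs in the Runx3-labelled library. For Acod1 the ratios were 3.76 (3.48 to 4.07) and 4.67 (3.77 to 5.86). Nos2 without Ly6c2 was at 0 of 368818 UMIs in the Runx3-labelled library. The level in the Runx3_fl-labelled library was 6.12-fold the limit that 0 allows, which leaves out the counting error of its 49 UMIs. The interval of the log2 ratio, Runx3 over Runx3_fl, ended at -2.262. For Slc7a2 and Acod1 the ratios within each side were as large as over all macrophages (11.7 and 3.68).

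Il6 and Il12b, cytokine genes of inflammatory macrophages, marked 124 of 254 macrophages in the Runx3_fl-labelled library and 49 of 276 in the Runx3-labelled library. Slc7a2 was at 332.3 CPM (305.8 to 360.4) with and 74.64 CPM (61.11 to 90.28) without these genes in the first library, the largest ratio of the 5 genes detected there, and at 26.31 and 15.78 CPM in the second, where the intervals overlapped. Nos2 was at 86.63 and 54.93 CPM in the first and at 21.05 and 4.856 CPM in the second, and neither pair overlapped. Arg2 with Il6 or Il12b was at 216.6 CPM (195.3 to 239.5) and 250.8 CPM (211.4 to 295.4) in the 2 libraries, which overlapped. Acod1 in cells without either cytokine gene still differed, at 1295 and 356.3 CPM, as did Nos2 (54.93 and 4.856 CPM). Median depths were 13623 and 10573 UMIs with and without these genes in the first library, and 10078 and 5828 in the second.

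The cells with Xist and without Y-linked genes could be compared with the cells of the opposite pattern within the Runx3_fl-labelled library. They were 33 and 173 macrophages. Nos2 was at 57.9 CPM (36.28 to 87.65) in the former and 74.52 CPM (63.74 to 86.6) in the latter, which overlapped. Slc7a2 was at 110.5 CPM (79.66 to 149.4) and 245.9 CPM (226 to 267.1), Arg2 at 89.47 CPM (61.96 to 125) and 224 CPM (205 to 244.3), and Acod1 at 1253 CPM (1143 to 1370) and 1499 CPM (1449 to 1550). None of these 3 pairs of intervals overlapped. In the broader macrophage set (71 and 389 cells) Slc7a2 was at 179.7 CPM (152.5 to 210.3) against 227.9 CPM (215.5 to 240.9) and Arg2 at 147.2 CPM (122.7 to 175.1) against 251.3 CPM (238.2 to 264.8). Acod1 overlapped there, at 1635 CPM (1551 to 1723) against 1622 CPM (1588 to 1656). Ass1 was at 121.1 CPM (88.63 to 161.5) against 177.5 CPM (160.7 to 195.7) in the narrower gate, which overlapped. In the broader set Ass1 was at 127.5 CPM (104.8 to 153.7) against 171.4 CPM (160.6 to 182.6), which did not. Slc7a2 and Arg2 thus differed between the cells of 1 library beyond counting error in both sets, Acod1 in the narrower gate and Ass1 in the broader set. The spread between cells, which these intervals leave out, was not tested. Both kinds of cell were above the macrophages of the Runx3-labelled library in Nos2, Slc7a2 and Acod1. For Arg2 the Xist cells of the narrower gate were below them, 89.47 against 165.5 CPM.

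Detection of the genes in the same cells was described in thinned macrophages of each library on its own, where counts were small. With Csf3r and Flt3 cells allowed (553 and 742 thinned cells), Arg2 was in 36.53% (32.01 to 41.23) of cells with Acod1 and 14.78% (8.854 to 22.61) of cells without it in the Runx3_fl-labelled library. In the Runx3-labelled library these shares were 37.1% (31.99 to 42.44) and 17.63% (14.01 to 21.74). In this broader set Arg2 was thus seen more often in cells with Acod1 than in cells without it in both libraries. In the narrower macrophage gate the shares were 31.58% (25.04 to 38.7) against 17.24% (8.59 to 29.43), and 29.67% (20.55 to 40.16) against 14.81% (9.29 to 21.95), and each pair of intervals overlapped. Slc7a2 in the broader set was in 11 of 52 cells with Nos2 (21.15%, 11.06 to 34.7) in the Runx3_fl-labelled library. It was in 13.97% of cells without Nos2, with overlapping intervals. In the Runx3-labelled library it was in 3 of 15 cells with Nos2 (20%, 4.331 to 48.09) and 2.063% (1.159 to 3.38) of the others, and these intervals did not overlap. In the narrower gate of that library Slc7a2 was in 1 of 4 cells with Nos2 (25%, 0.6309 to 80.59). There it was in 1.802% (0.4931 to 4.549) of the others, and the intervals overlapped. Arg2 in the broader set was in 40.38% (27.01 to 54.9) of cells with Nos2 in the Runx3_fl-labelled library. It was in 31.14% (27.1 to 35.39) of cells without Nos2, with overlapping intervals.

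**Figure D5:**
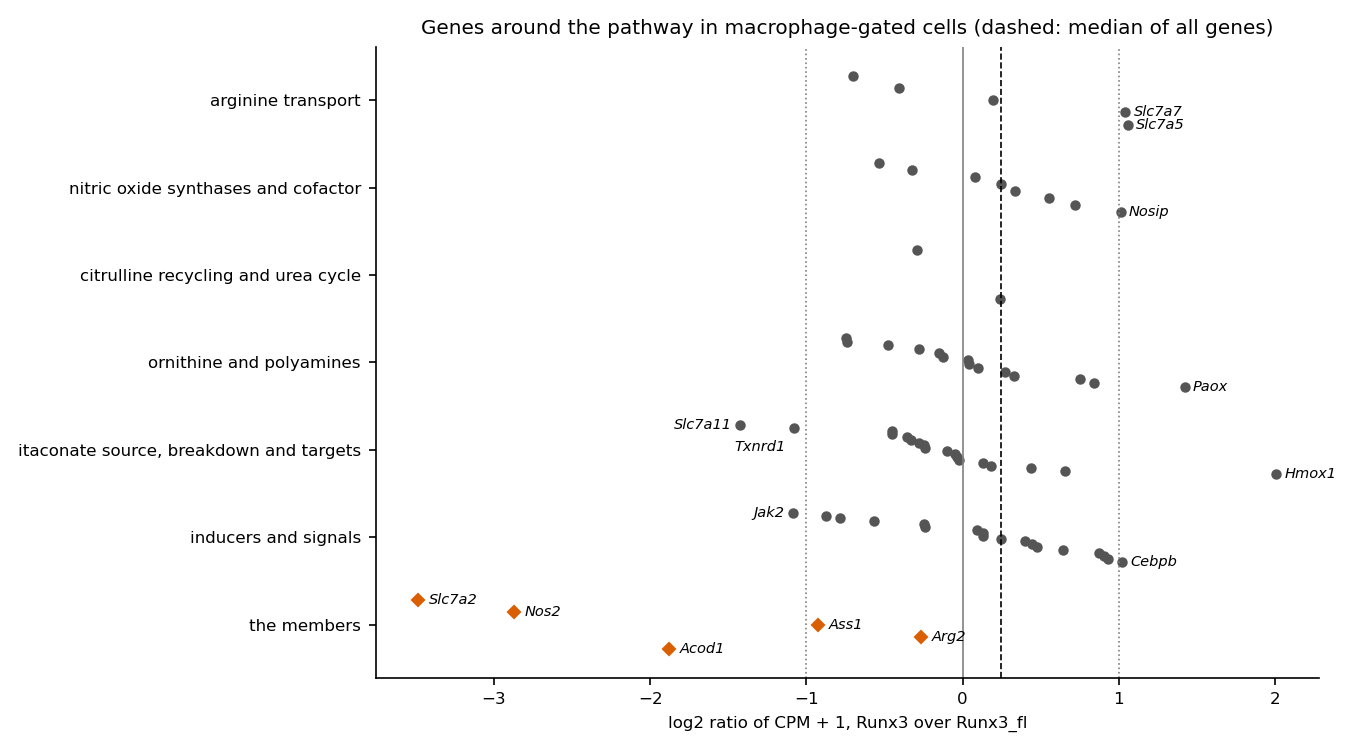
Log2 ratio of CPM + 1 in macrophages, Runx3-labelled over Runx3_fl-labelled library, for genes of 6 lists around the pathway (grey) and for 5 of the members (orange); dotted lines mark 2-fold and the dashed line the median of all genes (0.24). Of 65 list genes tested, 3 were past 2-fold lower and 6 past 2-fold higher, beside 3.53% and 15.5% of all genes. Slc7a2, Nos2 and Acod1, selected on this contrast, lay to the left of all 65.

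The other genes of the pathway were set beside all genes, and not beside the members, which were selected on this contrast. Of 73 genes in 6 lists, 65 had at least 10 UMIs in macrophages, and 3 were 2-fold lower and 6 were 2-fold higher in the Runx3-labelled library. Over all genes 3.53% were lower and 15.5% higher, and the counts of each list below stand beside these shares. The median log2 ratio of the 65 genes was 0.08 against 0.24 over all genes. Among 5 arginine and cationic or large neutral amino acid transport genes, 2 were higher and 0 lower. Slc7a5, a subunit of a large neutral amino acid transporter, was at 28.98 and 61.33 CPM, and Slc7a7, a subunit of a transporter that exports cationic amino acids, was at 24.88 and 52.31 CPM. Slc7a1, the constitutive arginine transporter, was at 98.28 CPM (87.68 to 109.8) and 59.98 CPM (50.22 to 71.08). Its log2 ratio was -0.70, in the direction of Slc7a2 and short of 2-fold. With Csf3r and Flt3 cells allowed, 0 of the 5 transport genes were 2-fold higher. Slc7a5 was then at a log2 ratio of 0.986 and Slc7a7 at 0.996.

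Of 8 genes for nitric oxide synthases, their cofactor and their binding partners, 0 were lower and 1 was higher. That gene was Nosip, which encodes a binding partner of endothelial nitric oxide synthase, at 14.49 and 30.21 CPM. Gch1, the first enzyme of tetrahydrobiopterin synthesis, a cofactor that Nos2 requires, was at 280.3 CPM (262.2 to 299.4) and 193 CPM (175.2 to 212.2), which is -0.54 as a log2 ratio. Nos1 had 0 UMIs in both libraries and Nos3 had 5 in each. Asl, which completes the recycling that Ass1 begins, was at 33.39 CPM (27.34 to 40.38) and 27.06 CPM (20.65 to 34.83), with overlapping intervals. Neither of the 2 urea cycle genes tested was past 2-fold. With Csf3r and Flt3 cells allowed, Nosip was at a log2 ratio of 0.832, within 2-fold. The 1 higher gene there was Nos3, from 6 and 25 UMIs.

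Downstream of the arginases, 13 of 14 ornithine and polyamine genes were within 2-fold. Odc1, which makes putrescine from ornithine, was at 197.8 CPM (182.6 to 213.9) and 203.8 CPM (185.5 to 223.5). The exception was Paox, a polyamine oxidase, at 6.615 and 19.39 CPM. With Csf3r and Flt3 cells allowed, 12 of these 14 genes were within 2-fold. Around itaconate, 15 of 18 genes were within 2-fold, among them the 4 succinate dehydrogenase subunits, with log2 ratios from -0.24 to 0.13. Slc7a11, the cystine importer, was at 2429 CPM (2375 to 2483) and 903.3 CPM (864.1 to 943.7). Txnrd1, thioredoxin reductase, was at 747.8 CPM (718 to 778.5) and 353.6 CPM (329.2 to 379.2). Hmox1, haem oxygenase, moved the other way, from 59.85 CPM (51.64 to 68.99) to 244 CPM (223.8 to 265.4). These 3 genes are among the targets of the Nrf2 response, were named because they passed 2-fold, and did not move together.

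Among 18 genes of inducing signals, 1 was lower and 1 higher. Jak2, a kinase of interferon-gamma receptor signalling, was at 687 CPM (658.5 to 716.5) and 322.4 CPM (299.2 to 347). Cebpb, a transcription factor of myeloid activation, was at 527 CPM (502 to 552.9) and 1070 CPM (1027 to 1114). Irf1, a transcription factor induced by interferon-gamma, was at 163.2 CPM (149.4 to 177.8) against 306.2 CPM (283.6 to 330.1), which is 0.90 as a log2 ratio. Nfkb1 was at 1993 and 1087 CPM, and Hif1a at 453 and 262 CPM. Ifngr2, a subunit of the interferon-gamma receptor, was at 53.55 CPM (45.8 to 62.23) against 102.8 CPM (89.9 to 117.1), a log2 ratio of 0.93. With Csf3r and Flt3 cells allowed, 1 of the 18 genes was lower and 3 were higher, beside 2.11% and 15.3% of all genes.

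Genes with the most similar pattern were found by Pearson correlation of log2(CPM + 10) over the 14 sums of 7 classes in 2 libraries, among 8501 genes at 20 CPM or more in at least 1 sum. The sums of 1 library share its depth and free RNA, so these are descriptions. Slc7a2 and Nos2 were near each other, with Nos2 the closest gene to Slc7a2 (r = 0.964) ahead of Intu (0.943) and P2ry10b (0.940). The closest genes to Nos2 were Dpys (0.965), Slc7a2 (0.964) and Il23a (0.963), the last a subunit of interleukin 23. For Acod1 they were Clec5a (0.988), a myeloid receptor, Slc7a11 (0.988) and Lyz2 (0.986), the lysozyme gene whose promoter drives Cre in the study. Arg2 was closest to Fam20c (0.996), Pilra (0.995) and Sgms2 (0.991), and Ass1 to Samhd1 (0.976), Ext1 (0.968) and Ik (0.952). Arg1 reached at most 5.306 CPM in any sum and was below the limit, and no pattern is read for it.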

How the data were processed

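For 2 libraries of mouse colon lamina propria, 1 per title, the authors deposited a matrix of UMI counts for each gene in each called cell. Cell Ranger 7.1.0 is named in the file headers, and mm10 and Seurat 4 in the submitters' processing notes. The deposited counts are whole numbers and were not normalized.

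Cells with 200 to 6000 genes and at most 15% of UMIs from mt- genes were kept, the study's limits. The upper limit and the gates, which leave out cells with genes of more than 1 class (1168 and 1599 mixed cells), were the treatment of doublets. The study's clustering was not used, so classes here may differ from its clusters. UMIs were summed by class and divided by the class total, giving CPM with exact Poisson intervals, which is less precise in the Runx3-labelled library at its lower depth. Shares carry Clopper-Pearson intervals and ratios of CPM an exact conditional binomial interval. Log2 ratios add 1 CPM, so they lie nearer 0 than the printed ratios. A count of 0 is read as allowing 3 counts. With 1 library per group no test was run. The interval step was checked on simulated data.

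The members and the gene lists were chosen with earlier results of these data known. Named genes were the members, gate genes, Runx3, list genes past 2-fold in macrophages at 10 CPM or more, and the 3 genes closest in pattern to each member. Genes of the same signals within 2-fold (Slc7a1, Gch1, Asl, Odc1, Irf1, Nfkb1, Hif1a, Ifngr2) were named after their values were seen. Alternatives changed the gates, depth, scaling, added CPM, background and cells used. The tools were scipy 1.17.1 (intervals), numpy 2.4.6, pandas 2.3.3 and matplotlib 3.10.9 under Python 3.11.15.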

Additional observations from a re-analysis of the deposited data

Results flagged for a closer look

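Members whose difference between the libraries ran opposite to that in macrophages were singled out where the intervals of both log2 ratios excluded 0. Values are log2 ratios of CPM + 1, Runx3-labelled over Runx3_fl-labelled library, and the difference between classes was not tested. Arg2, at -0.265 in macrophages, was at 1.041 in Flt3-gated dendritic cells, 1.121 in Ncr1-gated NK cells, 1.223 in Cd3e-gated T cells and 1.839 in Cd79a-gated B cells. Its level in these 4 classes was at most 22.8 CPM in either library. The neutrophil markers, which B cells should lack, summed to 10.77 and 284.9 CPM in B cells, and their part in the Arg2 values was not tested.

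Ass1, at -0.925 in macrophages, was at 0.217 in Flt3-gated cells, 1.044 in NK cells and 0.594 in T cells. Averaging over cells gave -0.020 in Flt3-gated cells. The NK value rests on 41 and 9 UMIs. Nos2, at -2.874 in macrophages, was at 1.079 in B cells, from 2 and 15 UMIs. Acod1, at -1.878 in macrophages, was at 0.552 in B cells, with 35.44 and 52.44 CPM. Arg1 was at 2.055 in macrophages, from 0 and 7 UMIs, and at -0.902 in B cells, from 31 and 18 UMIs.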

How the results depend on the processing

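No paired analysis was possible because each group had 1 library. In macrophages 71 alternative values were computed for the 6 members, and 48 of them moved by less than the counting interval. None of the 71 changed the sign of a member called 2-fold. Values are log2 ratios, Runx3 over Runx3_fl. Gates at 2 UMIs gave -1.934 for Nos2 and -2.009 for Acod1. Cells thinned to 2000 UMIs gave -1.991 for Nos2, -0.683 for Arg2 and -1.629 for Acod1. Taking the macrophage gate before the others gave -2.017 for Nos2 and -1.280 for Acod1. Adding 10 CPM gave -2.116 for Nos2, 0.396 for Arg1 and -2.994 for Slc7a2. Setting the median gene to 0 gave -0.508 for Arg2 and -2.121 for Acod1. Averaging over cells gave -0.053 for Arg2, -2.911 for Slc7a2 and -1.473 for Acod1. Subtracting the B cell level gave -2.045 for Acod1. Allowing Csf3r or Flt3 gave -1.846 for Nos2, -3.094 for Slc7a2 and -1.257 for Acod1. Using Xist cells of the Runx3_fl-labelled library gave 0.880 for Arg2, -2.517 for Slc7a2, -0.563 for Ass1 and -1.641 for Acod1. The last 2 settings were chosen after seeing the data. The sign of Arg2 thus depended on the cells used. In other classes Arg2 in Flt3-gated cells turned to -0.488 after the B cell level was subtracted, by which Arg2 was 4.528 and 18.78 CPM lower. After thinning, Arg1 in Csf3r-gated cells turned to -0.035, Ass1 in Csf3r-gated cells to 0.302 and Ass1 in Ly6c2-gated cells to 0.059. Gates at 2 UMIs turned Nos2 in Flt3-gated cells from -0.344 to 0.607. Averaging over cells turned Ass1 in Flt3-gated cells from 0.217 to -0.020, and thinning turned Arg2 in Ly6c2-gated cells from -0.015 to 0.235. Their causes were not tested. Macrophage counts are few, with 7 Arg1, 20 Nos2 and 41 Slc7a2 UMIs in the Runx3-labelled library.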
